A study of Mus musculus with 24 samples.

Results

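The collagen genes are the protein-coding genes whose symbol has the form Col, a type number, a and a chain number, and 44 of the 53465 genes in the expression table met that rule. Collagens are the triple-helical proteins of the extracellular matrix, and each molecule winds 3 alpha chains that come from 1 gene or from several. Fibrillar collagens (types I, II, III, V and XI among those expressed here) form the fibrils of connective tissue. Basement membrane collagens (type IV networks, with types XV and XVIII attached) underlie epithelium, endothelium and muscle, and type VI forms beaded microfilaments around cells. The FACIT collagens sit on the surface of fibrils, and the remaining genes encode short-chain, anchoring and membrane-spanning collagens. In differentiating embryonic stem cells, type IV chains are known for early deposition in basement membranes, type II for cartilage and notochord, and types I and III for mesenchyme and smooth muscle. By class the 44 genes were 11 fibrillar, 8 basement membrane, 6 type VI, 9 FACIT, 4 short-chain or anchoring, 4 transmembrane and 2 other.

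The libraries came from mouse embryonic stem cells in 8 groups: Atf3 knockout (KO, written Atf KO in the genotype label and Atf3 KO in the titles) and wild type (WT) cells, each in undifferentiated culture (day 0) and on days 3, 6 and 9 after it, with 3 libraries per group and 24 in all. Atf3 encodes a stress-induced transcription factor of the ATF/CREB family, and the series asks how its loss alters mesodermal and endothelial differentiation. The cell type is labelled Mes cells. For every library of both genotypes the labels list the stem cell medium, with fetal bovine serum, leukemia inhibitory factor, the GSK3 inhibitor CHIR99021 and the MEK inhibitor PD0325901. The sources used here do not state the differentiation medium, the edited part of Atf3 or the number of KO clones. The batch label repeats genotype and day, so batch and group cannot be told apart. Separate cultures are not stated, so every p-value below measures only the spread between these libraries. Values of single libraries are given in the order of replicate number, with an unnumbered KO library last at day 0. Values are FPKM, a fragment count scaled by exon length and by a size of each library, computed by the submitters. Whole reads recovered from the FPKM put the depth at 7855631 to 25274436 reads per library. The library size within the FPKM was not the total of these reads. Atf3 read 0.248, 0.447 and 0.611 FPKM in KO and 5.03, 15.8 and 10.5 FPKM in WT at day 3, and 0.343, 0.578 and 4.17 FPKM in KO and 12.7, 24 and 10.9 FPKM in WT at day 6. It read 0.355, 0.714 and 0.532 FPKM in KO and 13.7, 15 and 16.2 FPKM in WT at day 9. The genotypes did not overlap, and KO replicate 3 of day 6 was above the other KO libraries. At day 0 Atf3 was 0.134 to 0.217 FPKM in KO and 1.15 to 3.06 FPKM in WT. The naive stem cell markers Nanog, Esrrb, Zfp42, Klf4, Tfcp2l1, Pou5f1, Dppa3 and Tbx3 summed to 1535 to 1652 FPKM in KO and 1578 to 1645 FPKM in WT at day 0. At day 9 they summed to 28 to 92.8 FPKM in KO and 49.4 to 69.7 FPKM in WT. At day 6 the libraries numbered 3 stood apart from their groups. The 3 ribosomal RNA genes (Gm42418, CT010467.1 and Gm23935) took 6.1% of reads in that KO library and 45.6% in that WT library, and the WT library was the shallowest of all.

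Promoter sequences from RefSeq were found for 35 of the 44 genes, as 38 windows of 300 bases on GRCm38.p6 that run from 250 bases before the transcript start to 50 after it. Type IV collagen genes lie in head-to-head pairs, and Col4a1 and Col4a2, the chains of the most widespread basement membrane network, were both called higher in WT cells by day 3 and in both genotypes by day 6, so both windows are shown. Col4a1 lies on the minus strand at chr8:11198423-11312826 and Col4a2 on the plus strand at chr8:11312805-11449287, with 22 bases of overlap between the annotated genes. The windows of Col4a1 (chr8:11312777-11313076, minus strand) and Col4a2 (chr8:11312555-11312854, plus strand) share 78 bases (chr8:11312777-11312854), shown in capitals and read on opposite strands.
Col4a1: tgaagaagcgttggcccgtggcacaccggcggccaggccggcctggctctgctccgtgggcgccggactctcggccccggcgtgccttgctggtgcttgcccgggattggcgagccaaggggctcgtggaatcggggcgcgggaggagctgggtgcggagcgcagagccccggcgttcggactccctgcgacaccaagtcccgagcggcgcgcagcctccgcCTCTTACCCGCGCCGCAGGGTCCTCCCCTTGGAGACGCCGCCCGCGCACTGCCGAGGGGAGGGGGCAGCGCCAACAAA
Col4a2: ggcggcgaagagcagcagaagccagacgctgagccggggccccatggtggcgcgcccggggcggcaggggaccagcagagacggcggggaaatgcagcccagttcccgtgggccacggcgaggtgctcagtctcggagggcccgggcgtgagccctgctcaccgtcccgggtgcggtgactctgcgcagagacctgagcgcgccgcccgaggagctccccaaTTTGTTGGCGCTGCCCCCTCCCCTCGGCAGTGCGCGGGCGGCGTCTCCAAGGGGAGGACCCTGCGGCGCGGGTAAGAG
The shared stretch is 73.1% G and C, and the whole windows are 74% in Col4a1 and 73.7% in Col4a2.

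Col1a2 and Col3a1, fibrillar genes, are shown beside them because their windows differ in base composition. All 4 genes had their highest mean at day 9 in both genotypes, and a link of composition to timing was not tested. Capitals mark CCAAT or its reverse complement in Col1a2 (chr6:4505368-4505667, plus strand, 61% G and C) and TATAAA in Col3a1 (chr1:45311288-45311587, plus strand, 37.7% G and C).
Col1a2: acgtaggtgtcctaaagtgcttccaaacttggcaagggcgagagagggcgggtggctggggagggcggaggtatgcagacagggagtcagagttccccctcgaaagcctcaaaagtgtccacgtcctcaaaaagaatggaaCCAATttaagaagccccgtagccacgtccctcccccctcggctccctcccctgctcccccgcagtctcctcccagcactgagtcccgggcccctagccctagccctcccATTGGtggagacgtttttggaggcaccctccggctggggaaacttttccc
Col3a1: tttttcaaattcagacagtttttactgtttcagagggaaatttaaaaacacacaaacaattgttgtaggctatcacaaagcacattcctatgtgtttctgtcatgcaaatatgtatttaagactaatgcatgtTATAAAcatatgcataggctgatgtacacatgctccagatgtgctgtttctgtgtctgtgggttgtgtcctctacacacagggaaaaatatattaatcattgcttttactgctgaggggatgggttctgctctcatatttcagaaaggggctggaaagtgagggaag
Across the 38 collagen windows, searched on both strands, CCAAT was present in 34.2%, against 37.4% of all 32851 windows. TATAAA was present in 13.2% of collagen windows and 13.6% of all windows, and GGGCGG, a GC box, in 60.5% and 35.7%. The AP-1 site TGACTCA was found in 1 collagen window, that of Col6a1 (2.63%, against 5.2% of all windows), and the cAMP response element TGACGTCA in 1, that of Col24a1 (2.63%, against 1.79%). No motif searched contains another. A match describes the letters of the window and does not show that a factor binds there.

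Collagen RNA took a larger share of the reads at day 9 than at day 0 in every library of both genotypes. Without the ribosomal RNA genes, the 44 genes took 0.0322% ± 0.000554 of reads in KO and 0.0386% ± 0.00345 in WT at day 0 (SD, n = 3). The share was 0.0553% ± 0.00812 in KO and 0.0727% ± 0.0111 in WT at day 3, and 0.235% ± 0.0491 in KO and 0.21% ± 0.0201 in WT at day 6. It was 0.709% ± 0.252 in KO and 0.585% ± 0.0896 in WT at day 9. At day 9 the KO libraries spanned 0.479% to 0.978% and the WT libraries 0.486% to 0.66%, so the genotypes overlapped. These are bulk cultures, in which fewer cells of a type and less RNA per cell cannot be told apart. Genes with at least 1 FPKM in at least 3 libraries were tested with limma on log2(FPKM + 1), with a threshold of 0.05 on the adjusted p, and 29 of the 44 collagen genes passed that filter. A gene that passed only through the day at which it was high had to differ between days. The counts over the 29 therefore describe the genes measured and are no support for a general rise.

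Against day 0, 4 collagen genes were called higher and 1 lower at day 3 in KO cells (11.9% and 16.2% of all 15159 genes tested were called higher and lower), and 5 higher and 1 lower in WT cells (11.4% and 14.5%). At day 6 the counts were 16 higher and 1 lower in KO (21.4% and 22.3% of all genes) and 22 higher and 0 lower in WT (22.5% and 25.2%). At day 9 they were 26 higher and 0 lower in KO (22.4% and 22.7%) and 25 higher and 0 lower in WT (22.2% and 23.8%). The median difference from day 0 at day 9 over the 29 genes was 1.95 in KO and 1.55 in WT on the log2(FPKM + 1) scale, beside -0.02 and -0.01 over all genes. With no filter, all 44 genes could be fitted, and 31 were called higher and 2 lower at day 9 in KO (12.9% and 11.6% of 34699 genes) and 30 higher and 1 lower in WT (12.9% and 12%). The comparisons with day 0 share their day 0 libraries. Rescaling to TPM put the median of all genes at 0.68 in KO and 0.74 in WT at day 9, with 6209 genes called higher and 1015 lower in KO and 6729 higher and 950 lower in WT, of 17020. It left 14 collagen genes called in WT at day 6, beside 3629 of the 17020 genes.

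**Figure D1:**
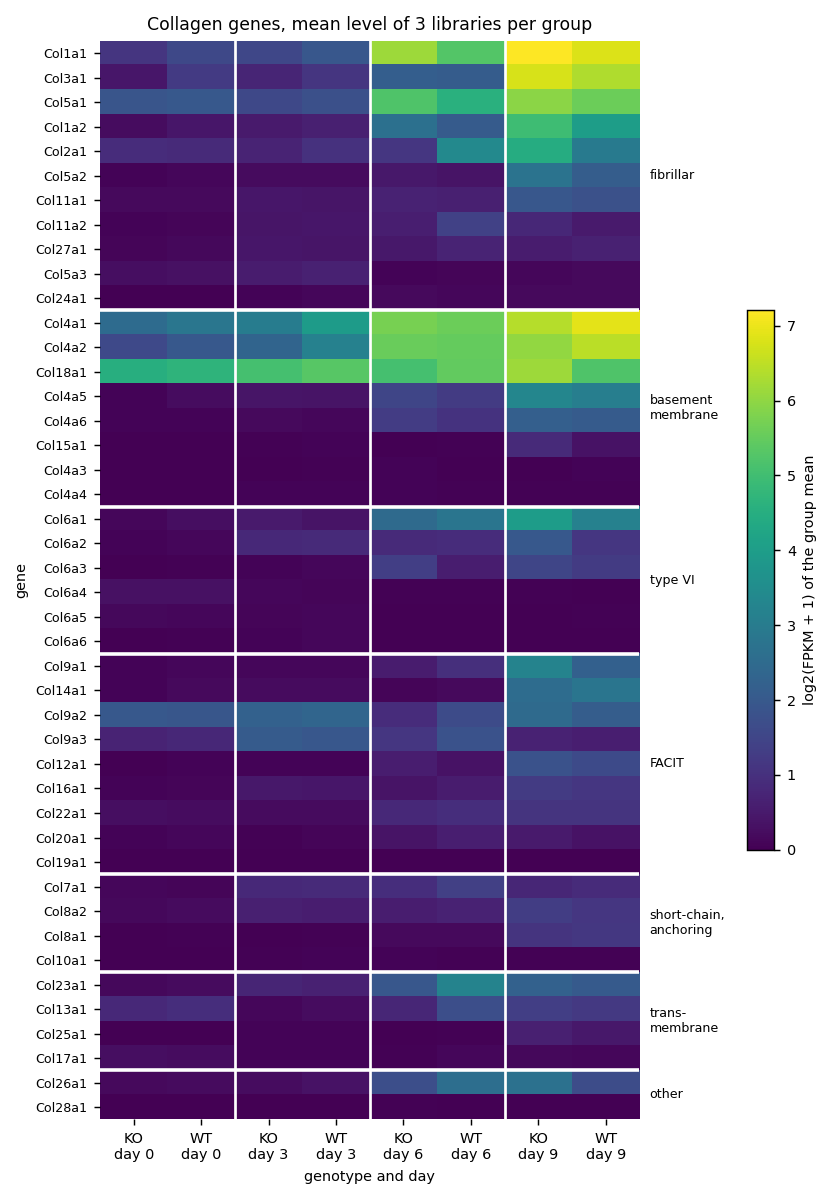
Mean level of each of the 44 collagen genes in the 8 groups, as log2(FPKM + 1) of the mean of 3 libraries; columns are KO and WT at days 0, 3, 6 and 9, and rows are genes by class, sorted by their highest group mean. Col18a1 is the brightest row at day 0. Col1a1, Col5a1, Col4a1 and Col4a2 are bright by day 6, Col3a1 is bright at day 9, and 15 genes stay dark throughout.

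Among the fibrillar genes, 8 of 11 were tested, and all 8 were called higher at day 9 than at day 0 in both genotypes. For this and the other classes, the share of all genes called higher at day 9 is 22.4% in KO and 22.2% in WT. Col1a1 (ENSMUSG00000001506, chr11:94936224-94953042), the main chain of type I collagen, was the most abundant collagen gene at day 9 in KO cells. It read 0.842, 1.27 and 1.4 FPKM in KO and 2.05, 1.84 and 1.98 FPKM in WT at day 0, and 2.74, 1.45 and 1.48 FPKM in KO and 2.51, 2.92 and 3.16 FPKM in WT at day 3. By day 6 it read 75.3, 86.1 and 48.3 FPKM in KO and 54.2, 28.4 and 31.2 FPKM in WT, and at day 9 119, 105 and 216 FPKM in KO and 72, 135 and 129 FPKM in WT. Every day 6 library of both genotypes stood above every earlier library, and within days 3, 6 and 9 the genotypes overlapped. The difference from day 0 was 5.00 (SE 0.30, adjusted p = 4.71e-11) at day 6 and 6.02 (SE 0.30, adjusted p = 3.10e-12) at day 9 in KO, on the log2(FPKM + 1) scale used for every difference below. In WT it was 3.66 (SE 0.30, adjusted p = 3.79e-09) at day 6 and 5.21 (SE 0.30, adjusted p = 2.93e-11) at day 9.

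Col5a1, a chain of the type V collagen that starts type I fibrils, followed the same days. Its levels were 2.68, 2.97 and 2.65 FPKM in KO and 3.53, 2.53 and 2.87 FPKM in WT at day 0, and 1.78, 1.82 and 2.17 FPKM in KO and 2.08, 2.55 and 2.52 FPKM in WT at day 3. They were 34.6, 42.8 and 31.3 FPKM in KO and 24.2, 27 and 17.7 FPKM in WT at day 6, and 58, 45.6 and 77.8 FPKM in KO and 40.8, 55.6 and 45.1 FPKM in WT at day 9. All 3 KO libraries lay above all 3 WT libraries at day 6, and the groups overlapped at day 9. The mean at day 6 was 59.9% of the day 9 mean in KO and 48.6% in WT.

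Col1a2, the partner chain in type I collagen, and Col3a1, the single chain of type III collagen, had most of their day 9 level still to come at day 6. Col1a2 measured 0.0689, 0.166 and 0.309 FPKM in KO and 0.349, 0.372 and 0.372 FPKM in WT at day 0, and 0.524, 0.351 and 0.442 FPKM in KO and 0.382, 0.656 and 0.584 FPKM in WT at day 3. It measured 5.67, 7.6 and 2.63 FPKM in KO and 4.04, 3.62 and 1.85 FPKM in WT at day 6, and 26.6, 16.6 and 46.9 FPKM in KO and 13.1, 17.6 and 14.4 FPKM in WT at day 9. The day 6 mean was 17.6% of the day 9 mean in KO and 21% in WT. Col3a1 stood at 0.0317, 0.355 and 0.671 FPKM in KO and 1.19, 1.56 and 1.28 FPKM in WT at day 0, and at 1.34, 0.0654 and 0.671 FPKM in KO and 0.702, 1.02 and 1.71 FPKM in WT at day 3. Its values were 3.34, 5.12 and 1.88 FPKM in KO and 2.6, 3.79 and 3.41 FPKM in WT at day 6, and 77.7, 62.2 and 184 FPKM in KO and 88.7, 90.2 and 63.2 FPKM in WT at day 9. For Col3a1 the day 6 mean was 3.19% of the day 9 mean in KO and 4.05% in WT. The gene was nonetheless called higher than at day 0 by day 6 in both genotypes, by 1.68 in KO (adjusted p = 5.46e-04) and 0.86 in WT (adjusted p = 0.0487), a WT call kept under 2 of 15 alternatives. At day 9 its difference from day 0 was 6.20 (SE 0.35, adjusted p = 2.09e-11) in KO and 5.11 (SE 0.35, adjusted p = 3.12e-10) in WT.

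The KO library numbered 3 was the highest of its group at day 9 for Col1a1, Col1a2, Col3a1, Col5a1 and Col5a2. Col5a2, the second chain of type V collagen and a neighbour of Col3a1 on chromosome 1, 24614 bases away, read 2.28 to 11.8 FPKM in KO and 2.3 to 4.47 FPKM in WT at day 9, after at most 0.503 FPKM in any day 6 library. Col11a1, a type XI chain, reached 1.8 to 4.1 FPKM in KO and 1.49 to 3.98 FPKM in WT at day 9. Both were called higher at day 9 than at day 0, and neither at day 6, in either genotype. Summed smooth muscle markers (Acta2, Tagln, Cnn1, Myh11, Actg2, Myl9, Myocd and Lmod1) also stood high at day 9, at 1070 to 1492 FPKM in KO and 719 to 1374 FPKM in WT. At day 6 they summed to 213 to 347 FPKM in KO and 65.3 to 165 FPKM in WT. Of the 7 tested, 1 was called higher in KO than in WT at day 9 (0.468% of all genes) and 0 at day 6. The 10 fibroblast and mesenchyme markers (Pdgfra, Pdgfrb, Thy1, Twist1, Prrx1, Tcf21, Snai2, Meox1, Lum and Dcn) summed to 79.2 to 113 FPKM in KO and 77.6 to 91.4 FPKM in WT at day 9. Their sum at day 6 was 18.6 to 30.3 FPKM in KO and 27.9 to 43 FPKM in WT. Of these 10, 3 had a positive and 7 a negative KO against WT difference at day 6, and likewise at day 9. The medians were -0.21 and -0.12, and 0 were called. The part of these cells in the rise of the fibrillar genes was not tested.

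**Figure D2:**
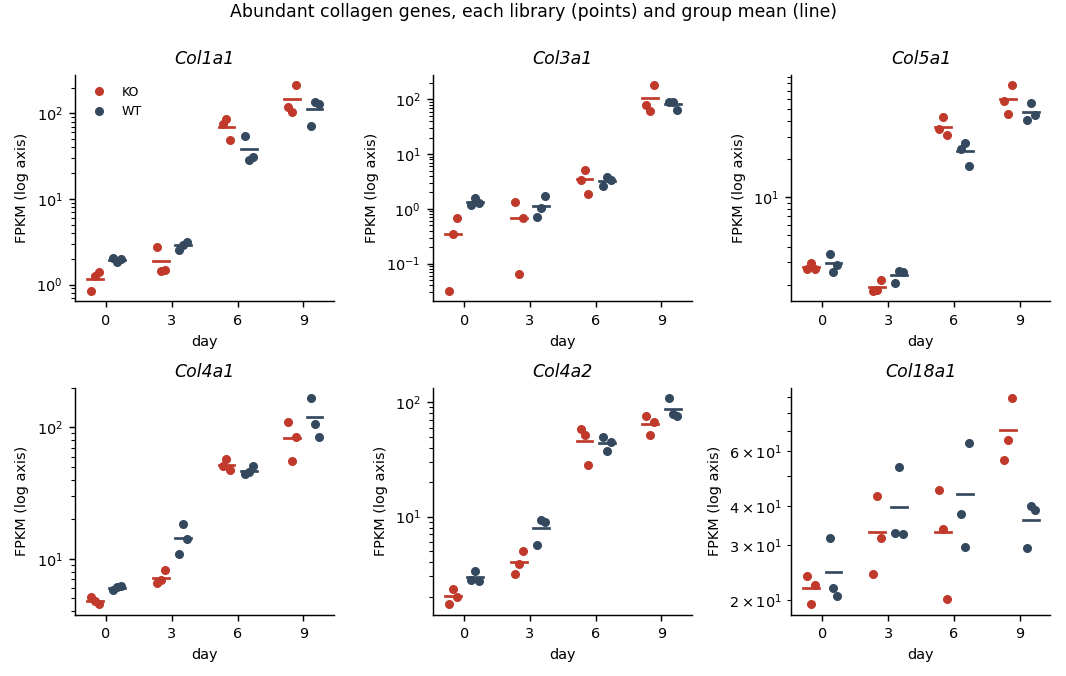
FPKM (log axis) of Col1a1, Col3a1, Col5a1, Col4a1, Col4a2 and Col18a1 by day; each point is a library, each line a group mean, KO red at left and WT dark at right. Col1a1 and both type IV genes are far above day 0 by day 6, and Col3a1 is at 3.19% (KO) and 4.05% (WT) of its day 9 mean. At day 9 the KO points of Col18a1 (56.2 to 89 FPKM) lie above its WT points (29.4 to 40 FPKM), as for 6.41% of all genes tested.

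The basement membrane genes held the most abundant collagen of day 0 cells, Col18a1, and the gene pair Col4a1 and Col4a2, of which both rose in WT and Col4a2 in KO by day 3. Of 8 genes 5 were tested, and at day 9 all 5 were called higher than at day 0 in KO and 4 in WT. Col18a1, whose product carries the endostatin fragment, was the highest of the 44 genes at day 0, with 23.8, 19.3 and 22.3 FPKM in KO and 31.6, 21.7 and 20.6 FPKM in WT. At day 3 it read 24.2, 43 and 31.6 FPKM in KO and 32.9, 53.5 and 32.5 FPKM in WT, and at day 6 45.2, 33.7 and 20.1 FPKM in KO and 37.8, 29.5 and 63.9 FPKM in WT. At day 9 it read 56.2, 65.5 and 89 FPKM in KO and 29.4, 40 and 38.8 FPKM in WT. The KO libraries were all above the WT libraries, as for 6.41% of all genes tested. Against day 0, Col18a1 rose in KO at day 9, by 1.62 (SE 0.31, adjusted p = 1.88e-04), with a day 6 difference of 0.51 (SE 0.31, adjusted p = 0.189). In WT it rose at day 6, by 0.75 (SE 0.31, adjusted p = 0.0486), a call kept under 5 of 15 alternatives, and the day 9 difference was 0.55 (SE 0.31, adjusted p = 0.156). The test of whether the change to day 9 differed between genotypes gave 1.08 (SE 0.43, adjusted p = 1), which did not pass.

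Col4a1 (ENSMUSG00000031502) and Col4a2 (ENSMUSG00000031503), whose windows are printed above, were among the genes called by day 3, when no fibrillar gene was called in either genotype. Col4a1 read 5.09, 4.75 and 4.51 FPKM in KO and 5.77, 6.14 and 6.22 FPKM in WT at day 0, and 6.51, 6.91 and 8.19 FPKM in KO and 10.8, 18.4 and 14.2 FPKM in WT at day 3. It stood at 50.9, 57.2 and 47.4 FPKM in KO and 43.9, 45.6 and 51.1 FPKM in WT at day 6, and at 110.0, 55.1 and 85.1 FPKM in KO and 167, 106 and 84.8 FPKM in WT at day 9. The KO libraries were all below the WT libraries at days 0 and 3 and overlapped with them at days 6 and 9. Col4a2 measured 1.72, 2.35 and 1.98 FPKM in KO and 2.82, 3.37 and 2.76 FPKM in WT at day 0, and 3.12, 3.82 and 4.99 FPKM in KO and 5.71, 9.37 and 8.99 FPKM in WT at day 3. Its later values were 58.4, 51.5 and 28.3 FPKM in KO and 49.7, 37.7 and 45.1 FPKM in WT at day 6, and 76, 51.6 and 66.6 FPKM in KO and 108, 79.1 and 75.4 FPKM in WT at day 9. It showed the same pattern, with KO below WT in every library at days 0 and 3 and overlap afterwards. Between days 0 and 3, Col4a1 and Col4a2 rose in WT by 1.11 (SE 0.24, adjusted p = 0.00131) and 1.16 (SE 0.24, adjusted p = 0.00109). In KO, Col4a2 rose by 0.71 (SE 0.24, adjusted p = 0.0324), a call kept under 7 of 14 alternatives, and the Col4a1 difference was 0.50 (SE 0.24, adjusted p = 0.123). At day 6 the differences from day 0 were 3.19 and 3.91 in KO and 2.76 and 3.50 in WT, all called.

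The other paired type IV genes were far lower. Col4a5 and Col4a6, on the X chromosome with their starts 1308 bases apart, were compared at day 9. Col4a5 reached 3.58 to 15.9 FPKM in KO and 3.13 to 12.2 FPKM in WT, and Col4a6 1.62 to 6.65 FPKM in KO and 2.03 to 3.98 FPKM in WT. Both were called higher at days 6 and 9 in both genotypes, Col4a5 in WT at day 6 under 6 of 15 alternatives. Col4a3 and Col4a4, chains of the kidney glomerular network whose starts lie 71 bases apart, never passed 0.142 and 0.112 FPKM in any library. Col15a1, the relative of Col18a1 in vascular basement membranes, was under the filter, with 1.16, 0.433 and 0.856 FPKM in KO against 0.239, 0.362 and 0.265 FPKM in WT at day 9. The KO values of Col15a1 lay above the WT values, and with no filter on low values it was called between the genotypes, at 0.48 (adjusted p = 0.00919, where 0.375% of all genes were called higher). The 13 markers of parietal and visceral endoderm, tissues rich in type IV collagen, summed to 93.7 to 562 FPKM in KO and 115 to 251 FPKM in WT at day 6. At day 9 their sum was 133 to 348 FPKM in KO and 266 to 325 FPKM in WT. A sum is carried by its most abundant genes. Of the 12 endoderm markers tested, 5 had a positive and 7 a negative KO against WT difference at day 6 (median -0.07). At day 9, 4 were positive and 8 negative (median -0.61), and 0 were called at either day. The 8 endothelial markers summed to 22 to 42.1 FPKM in KO and 10.02 to 15 FPKM in WT at day 9, all KO libraries above all WT libraries. Of the 7 tested, 3 were called higher in KO and 0 lower (0.468% and 0.495% of all genes). The part of the endoderm and endothelial markers in the basement membrane values was not tested.

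The ratio of FPKM between chains that are built into 1 molecule was not the same on each day. The ratio of Col4a1 to Col4a2 was 2.42 ± 0.489 in KO and 2.04 ± 0.217 in WT at day 0, and 1.84 ± 0.223 in KO and 1.81 ± 0.202 in WT at day 3 (SD, n = 3). It was 1.22 ± 0.413 in KO and 1.08 ± 0.17 in WT at day 6, and 1.26 ± 0.19 in KO and 1.34 ± 0.21 in WT at day 9. The 6 libraries of day 0 lay between 1.82 and 2.96 and the 6 of day 9 between 1.07 and 1.54, while the genotypes overlapped at each day. The ratio of Col1a1 to Col1a2 was 14.3 ± 3.63 in KO and 12.7 ± 4.58 in WT at day 6, and 5.12 ± 1.01 in KO and 7.37 ± 1.76 in WT at day 9. At days 0 and 3 no library held both type I chains at 1 FPKM. The size of a ratio depends on the exon length used for FPKM, which for Col1a2 is 12426 bases against 5348 in its longest transcript. Its change over time does not depend on that length.

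**Figure D3:**
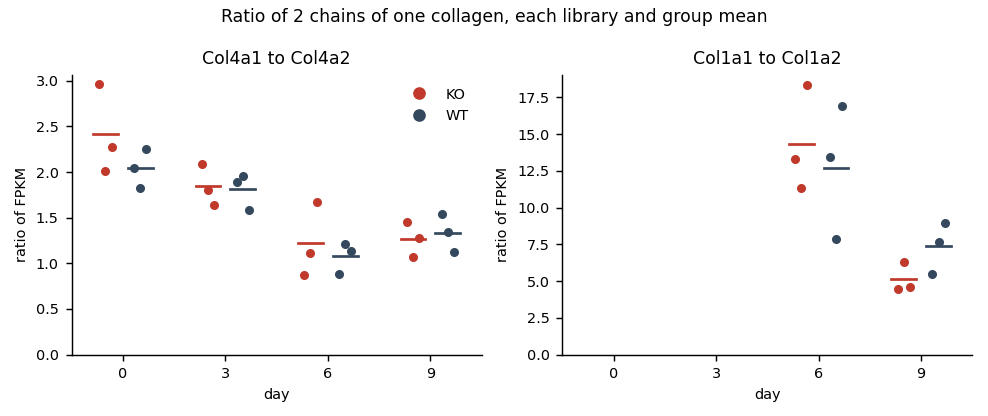
Ratio of FPKM of Col4a1 to Col4a2 and of Col1a1 to Col1a2 (linear axes from 0) by day; points are libraries, lines group means, KO red at left and WT dark at right. The mean type IV ratio is 2.42 (KO) and 2.04 (WT) at day 0 and 1.26 (KO) and 1.34 (WT) at day 9. The type I ratio, shown where both genes reach 1 FPKM, has lower means at day 9 than at day 6.

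Type VI and the remaining classes were lower. Of the 6 type VI genes, Col6a1, Col6a2 and Col6a3, the classical trimer, were tested, and all 3 were called higher at day 9 in both genotypes. Col6a1 reached 7.51 to 27.8 FPKM in KO and 6.23 to 9.19 FPKM in WT, and Col6a2 1.44 to 5.11 FPKM in KO and 0.788 to 1.51 FPKM in WT. Col6a3 reached 0.799 to 3.8 FPKM in KO and 1.25 to 1.64 FPKM in WT. In KO the library numbered 3 held the highest value of all 3 genes. Col6a4, Col6a5 and Col6a6 stayed at or under 0.296 FPKM. Among the FACIT genes, 7 of 9 were tested and 5 were called higher at day 9 in each genotype. Col14a1, a fibril-surface collagen of mature connective tissue, was a late gene, at 2.69 to 7.23 FPKM in KO and 4.21 to 7.58 FPKM in WT at day 9, and its day 6 mean was 1.62% of that in KO and 2.14% in WT. Col9a3, a chain of the type IX collagen that coats cartilage fibrils, had its highest KO and WT means at day 3. It read 2.63, 2.9 and 3.99 FPKM in KO and 2.84, 3.3 and 2.51 FPKM in WT at day 3. At day 0 it had been 0.525, 0.683 and 0.713 FPKM in KO and 1.03, 0.854 and 0.352 FPKM in WT, and at day 9 it was 0.403 to 0.805 FPKM in KO and 0.363 to 0.803 FPKM in WT. Its rise to day 3 was 1.34 (SE 0.18, adjusted p = 1.09e-05) in KO and 1.17 (SE 0.18, adjusted p = 5.30e-05) in WT. On the log2(FPKM + 1) scale, which understates changes of low genes, it was the largest of any collagen gene at that day in both. As a ratio of means the rise of Col6a2 was larger, from 0.0501 to 0.772 FPKM in KO and from 0.0847 to 0.8 FPKM in WT. Col9a1 reached 3.53 to 13.9 FPKM in KO and 2.87 to 4.2 FPKM in WT at day 9. Col9a2 held 2.36 to 4.02 FPKM in KO and 2.63 to 3.06 FPKM in WT already at day 0 and fell in KO at day 6, with a difference of -1.10 (SE 0.22, adjusted p = 4.09e-04).

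Of the short-chain and anchoring genes, Col7a1 (the anchoring fibril of skin), Col8a1 and Col8a2 (the type VIII network of vessels and cornea) were tested, and all 3 were called higher at day 9 in both genotypes without passing 2.22 FPKM in any library. Col7a1 was also called higher at day 3, by 0.70 in KO and 0.76 in WT. The transmembrane gene Col23a1 reached 1.38 to 3.7 FPKM in KO and 4.88 to 11.6 FPKM in WT at day 6. Col26a1, a short collagen known from testis and ovary, reached 0.704 to 4.22 FPKM in KO and 2.98 to 7.72 FPKM in WT at day 6, and 2.03 to 8.35 FPKM in KO and 1.4 to 2.61 FPKM in WT at day 9. Col13a1, the membrane collagen of neuromuscular junctions, was the 1 gene that fell by day 3, with a difference of -0.68 (SE 0.22, adjusted p = 0.0244) in KO and -0.71 (SE 0.22, adjusted p = 0.0209) in WT, kept under 7 and 9 of 13 alternatives. Of the 27 genes whose highest KO mean reached 1 FPKM, 26 peaked at day 9. Of 29 such genes in WT, 20 peaked at day 9, 7 at day 6 and 2 at day 3. The 7 were Col18a1, Col11a2, Col2a1, Col26a1, Col7a1, Col13a1 and Col23a1. Col11a2 and Col7a1 reached 1 FPKM in WT means only, so the sets differ. No share over all genes was taken, and a difference in peak day was not tested. At day 6 the highest WT values of Col18a1 (63.9 FPKM) and Col7a1 (2.18 FPKM) were in replicate 3, the shallowest library. Another 15 genes were not tested (Col4a3, Col4a4, Col5a3, Col6a4, Col6a5, Col6a6, Col10a1, Col15a1, Col17a1, Col19a1, Col20a1, Col24a1, Col25a1, Col27a1 and Col28a1), and of these only Col15a1 exceeded 1 FPKM in any library.

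At days 0 and 3 no collagen gene was called between KO and WT. In limma the counts at an unadjusted p under 0.05 were 1 of 29 at day 0 and 2 of 29 at day 3 (1.11% and 0.798% of all genes). Voom on the recovered reads called 0 at both days, and limma called 0.0132% of all genes at each. At day 0 the KO libraries lay wholly below the WT libraries for 9 of the 29 genes (Col1a1, Col1a2, Col3a1, Col4a1, Col4a2, Col4a5, Col5a2, Col8a1 and Col14a1) and wholly above for 0 (4.11% and 3.4% of all genes). Of these, Col1a2, Col4a5, Col5a2, Col8a1 and Col14a1 were at most 0.372 FPKM in any day 0 library and passed the filter through later days. Col8a1 rested on 2, 0 and 2 reads in KO and 3, 3 and 2 in WT, and Col14a1 on 3, 4 and 7 against 8, 13 and 11. Col3a1 had the largest of these differences, -0.82 (95% interval -1.54 to -0.09), at means of 0.352 ± 0.319 FPKM in KO and 1.34 ± 0.195 FPKM in WT (SD, n = 3), and in KO replicate 1 it rested on 4 reads. The sum of the smooth muscle markers was also lower in the KO libraries at day 0, at 5.24 to 15.4 FPKM against 16.0 to 18.7 FPKM in WT. Of the 7 tested, 5 had a negative and 2 a positive difference, and 0 were called. The part of these markers in the collagen values was not tested. At day 3 the KO libraries lay wholly below WT for 3 genes (Col2a1, Col4a1 and Col4a2) and wholly above for 1 (Col6a1; 2.3% and 1.5% of all genes). Col4a1 averaged 7.2 ± 0.877 FPKM in KO and 14.5 ± 3.8 FPKM in WT, and Col4a2 3.98 ± 0.941 FPKM in KO and 8.02 ± 2.01 FPKM in WT. Their differences were -0.89 (95% interval -1.38 to -0.40) and -0.85 (95% interval -1.35 to -0.34), and neither passed the adjustment over all genes (adjusted p = 1 each). The endoderm markers summed to 26.7 to 30.2 FPKM in KO and 35.5 to 46.8 FPKM in WT at day 3, without overlap, and their part was not tested.

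At day 6, 3 collagen genes were lower in KO than in WT and 0 were higher (0.495% of all genes were called lower and 0.231% higher). Col2a1 (ENSMUSG00000022483, chr15:97975602-98004695), the single chain of type II collagen in cartilage and notochord, showed the largest difference. It read 2.15, 0.677 and 0.736 FPKM in KO against 11.2, 7.19 and 10.4 FPKM in WT at day 6, from 216, 116 and 137 reads in KO and 1174, 1123 and 419 reads in WT. All WT libraries stood well above all KO libraries. Col2a1 had been 0.908, 0.782 and 0.988 FPKM in KO and 0.962, 0.64 and 0.824 FPKM in WT at day 0, and 0.525, 0.781 and 0.61 FPKM in KO and 1.02, 1.09 and 0.967 FPKM in WT at day 3. The difference between days 6 and 0 was 0.15 (SE 0.36, adjusted p = 0.773) in KO, which did not pass, and 2.53 (SE 0.36, adjusted p = 9.71e-06) in WT, which did. The KO against WT difference at day 6 was -2.32 (SE 0.36, adjusted p = 0.00223), a ratio of means of 0.124.

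Col11a2, a chain of the type XI collagen found inside type II fibrils, read 0.635, 0.492 and 0.472 FPKM in KO and 2.12, 1.27 and 1.54 FPKM in WT at day 6. All KO libraries were lower, and the difference was -0.78 (SE 0.16, adjusted p = 0.0269). Before that it was 0.0228, 0.0521 and 0.0847 FPKM in KO and 0.0264, 0.0688 and 0.0934 FPKM in WT at day 0, and 0.0938, 0.282 and 0.643 FPKM in KO and 0.24, 0.291 and 0.496 FPKM in WT at day 3, with overlap at both days. Col13a1 read 0.982, 1.02 and 0.14 FPKM in KO and 2.58, 1.16 and 3.24 FPKM in WT at day 6, again without overlap, and differed by -0.95 (SE 0.22, adjusted p = 0.0484). Its other values were 0.845, 0.989 and 0.487 FPKM in KO and 0.862, 0.919 and 0.987 FPKM in WT at day 0, and 0.0696, 0.112 and 0.111 FPKM in KO and 0.0981, 0.206 and 0.231 FPKM in WT at day 3. At day 9 they were 1.23, 1.72 and 1.61 FPKM in KO and 0.945, 1.4 and 1.49 FPKM in WT. The genotypes overlapped on each of these days.

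The same side of zero was seen in the type IX cartilage collagens, without passing the test, and not in Col11a1. Of the 6 tested genes of types II, IX and XI, the 2 called lower at day 6 were Col2a1 and Col11a2. Among the others, Col9a1 (-0.41), Col9a2 and Col9a3 had negative differences and Col11a1 had 0.06. The median of all 6, the 2 called genes included, was -0.73 beside 0.02 over all genes. Col9a2 and Col9a3 lay below WT in every KO library, at differences of -0.78 (SE 0.22, adjusted p = 0.133) and -0.68 (SE 0.18, adjusted p = 0.112), and so did Col23a1 at -1.26 (SE 0.31, adjusted p = 0.0635) and Col16a1. In all, 7 of 29 collagen genes lay wholly below WT at day 6 and 3 wholly above (3.73% and 4.18% of all genes). Those above were Col5a1 at 0.65 (SE 0.19, adjusted p = 0.159), Col6a3 at 0.73 (SE 0.26, adjusted p = 0.301) and Col4a6. Over the 29 genes there were 12 positive and 17 negative differences at day 6. Rescaling to TPM put the median of all genes at 0.51 and turned 8 of the 29 signs. Sox9, the regulator of cartilage collagens, read 2.81, 1.4 and 6.95 FPKM in KO and 5.93, 3.87 and 11.8 FPKM in WT at day 6, with overlap. The 8 cartilage markers, Sox9 among them, summed to 4.11 to 9.63 FPKM in KO and 5.75 to 13.7 FPKM in WT. Their part in the Col2a1 difference was not tested. Col2a1 stayed called without the libraries numbered 3 of both genotypes at day 6 (-2.12, adjusted p = 0.032), but not after rescaling to TPM (adjusted p = 0.0559) or in a fit of only the day 6 libraries (adjusted p = 0.335). Col11a2 and Col13a1 each lost the call when any of 4 of the 6 day 6 libraries was left out, and in the fit with the replicate number as a block (adjusted p = 0.0647 and 0.096).

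**Figure D4:**
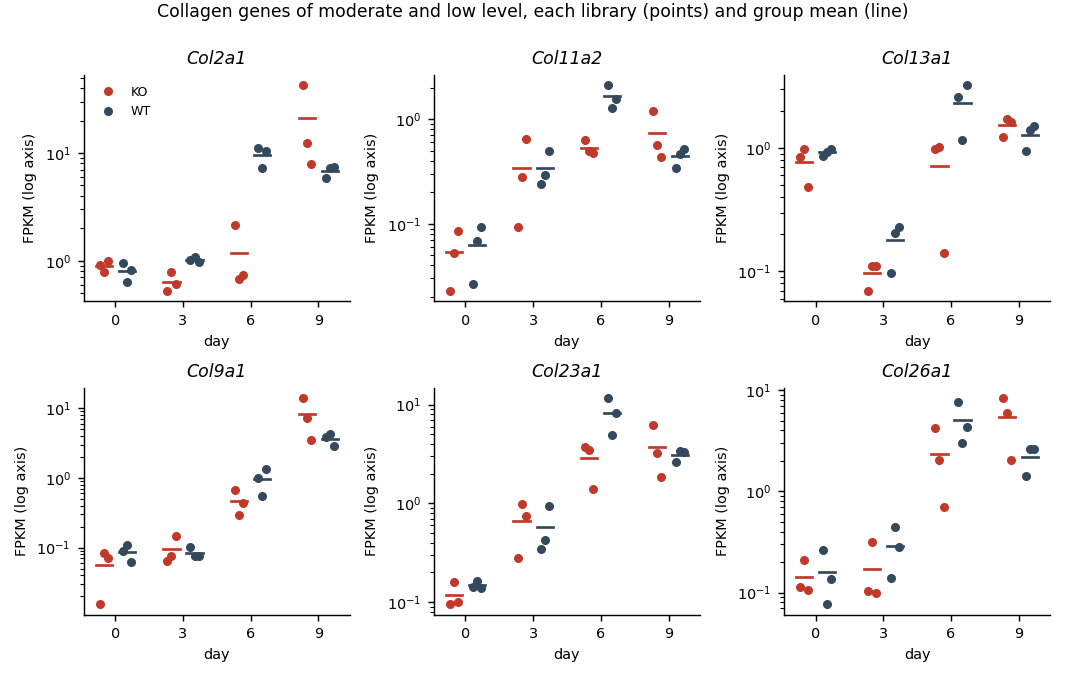
FPKM (log axes) of Col2a1, Col11a2, Col13a1, Col9a1, Col23a1 and Col26a1 by day, chosen after their values were seen; points are libraries and lines group means, KO red at left and WT dark at right. For Col2a1 the KO points lie below the WT points at day 6 (0.677 to 2.15 against 7.19 to 11.2 FPKM) and above them at day 9 (7.97 to 42.8 against 5.89 to 7.4 FPKM).

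At day 9 the order of Col2a1 was the other way round. It read 42.8, 12.3 and 7.97 FPKM in KO and 5.89, 7.2 and 7.4 FPKM in WT, the KO libraries all higher, with KO replicate 1 far above the others. The day 9 difference alone was 1.15 (SE 0.36, adjusted p = 0.264) and did not pass, but the change between days 6 and 9 differed between genotypes, by 3.47 (SE 0.51, adjusted p = 0.00111), KO minus WT. Col11a2 read 1.18, 0.563 and 0.438 FPKM in KO and 0.34, 0.468 and 0.522 FPKM in WT at day 9, with overlap, and its change from day 6 differed by 1.01 (SE 0.23, adjusted p = 0.0384). That call was kept under 5 of 21 alternatives (adjusted p from 0.0156 to 0.599), and it was lost with either replicate block (0.0819 and 0.106), voom (0.151) and TPM (0.599). These 2 were the collagen genes called in that comparison, in which 0.6% of all genes were called higher and 0.363% lower. In WT both had their highest mean at day 6, 9.58 ± 2.1 FPKM for Col2a1 and 1.64 ± 0.437 FPKM for Col11a2, while in KO both had it at day 9, 21 ± 19 FPKM and 0.729 ± 0.4 FPKM (SD, n = 3). The Col2a1 result held without KO replicate 1 of day 9 (2.80, adjusted p = 9.13e-05), and it was not called in a fit of only the groups compared (adjusted p = 0.163). Sox9 read 8.38, 5.91 and 3.32 FPKM in KO and 2.29, 3.16 and 4.44 FPKM in WT at day 9, with overlap. The 8 cartilage markers, Sox9 among them, summed to 7.59 to 12.2 FPKM in KO and 6.19 to 6.74 FPKM in WT, without overlap. Of these markers 4 were tested at day 9, with 3 positive differences, 1 negative and 0 called. Their part was not tested.

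No collagen gene passed the test between KO and WT at day 9 itself. In limma 7 of 29 had an unadjusted p under 0.05 (5.2% of all genes), and limma called 0.468% of all genes higher and 0.495% lower. Voom on recovered reads called 0 collagen genes. Wholly above WT were 2 genes, Col2a1 and Col18a1, and wholly below were 0 (6.41% and 4.08% of all genes). For Col18a1 the difference was 0.93 (SE 0.31, adjusted p = 0.323), a ratio of means of 1.94, and among the alternatives run it was called only after scaling to equal sums without the ribosomal RNA genes (0.97, adjusted p = 0.0475). Col4a1 and Col4a2 leaned the other way, at -0.51 (SE 0.24, adjusted p = 0.907) and -0.43 (SE 0.24, adjusted p = 1). Among the 8 fibrillar genes all differences were positive, with a median of 0.35 beside 0.01 over all genes, and none passed. For Col3a1 the difference was 0.27 with a 95% interval of -0.46 to 1.00, so a change of either sign is not resolved. Which library was left out mattered: without KO replicate 1, Col6a2 was called (1.04, adjusted p = 0.0369), and without KO replicate 3, Col2a1 (1.63, adjusted p = 0.0163) and Col9a1 (1.27, adjusted p = 0.00172) were. KO replicate 1 had the highest Col2a1, Col9a1, Col23a1 and Col26a1 of its group, and KO replicate 3 the highest Col1a1, Col3a1, Col4a5 and Col6a1. Cardiac muscle markers summed to 304 to 1029 FPKM in KO and 88.1 to 154 FPKM in WT at day 9. Of the 7 tested, 5 were called higher in KO and 0 lower (0.468% and 0.495% of all genes). The part of these markers in the collagen values was not tested. Against day 0, the change to day 9 differed between genotypes for 0 collagen genes in limma (0.264% of all genes were called). At an unadjusted p under 0.05 there were 6 (3.06% of all genes), and voom called 0.

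**Figure D5:**
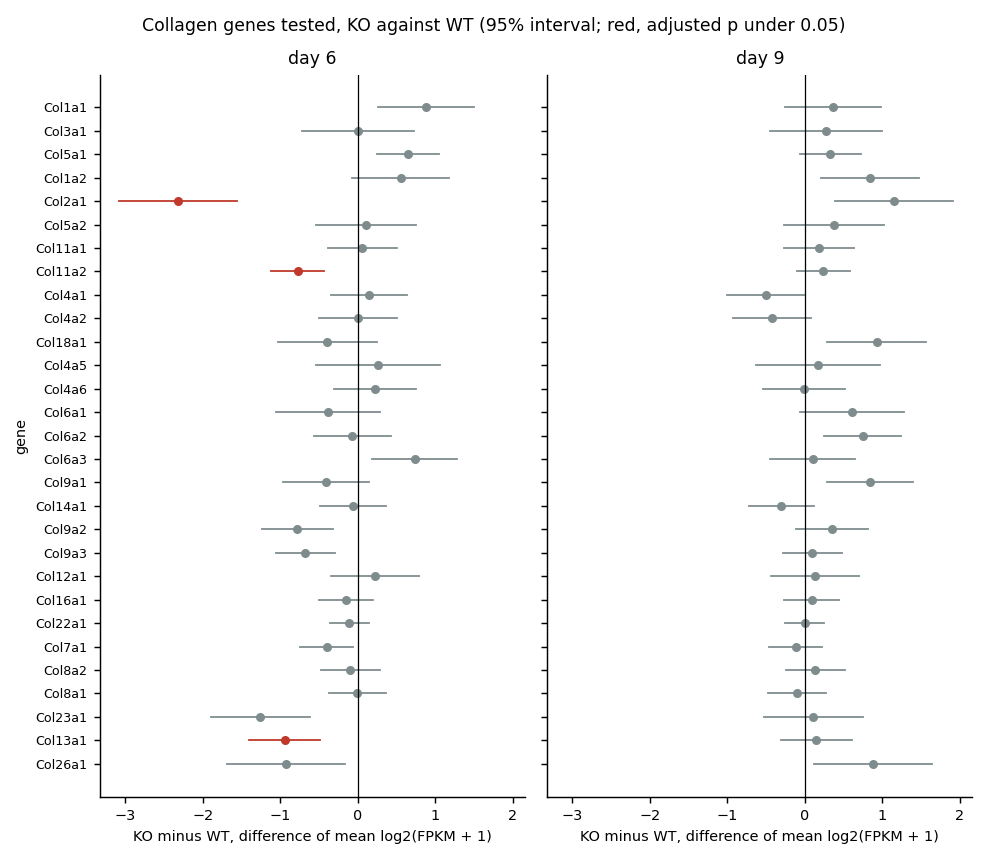
KO minus WT difference of mean log2(FPKM + 1) for the 29 tested collagen genes at days 6 and 9, with 95% intervals from limma; red marks an adjusted p under 0.05. At day 6, Col2a1, Col11a2 and Col13a1 are red and negative, and at day 9 no gene is red and Col2a1 is positive at 1.15.

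Other genes that modify, fold, process and bind collagen were set beside the collagens in 6 lists, chosen with earlier results of these data known, and none of their tested members was called between KO and WT at any day. Of the 14 tested enzymes of prolyl and lysyl modification, 9 were called higher and 2 lower at day 9 than at day 0 in KO, and 8 and 1 in WT. Over all genes, and beside every list that follows, 22.4% were called higher and 22.7% lower in KO, and 22.2% and 23.8% in WT. Their most abundant member, P4hb, the shared subunit of the prolyl hydroxylases, was 339.7 ± 29.3 FPKM in KO and 321 ± 30.1 FPKM in WT at day 9 and was not called against day 0 in either. Of the 10 chaperone and export genes, 6 were called higher and 1 lower in each genotype. Sparc, a collagen-binding matricellular protein and the most abundant of them, averaged 80 ± 1.56 FPKM in KO and 75.4 ± 3.96 FPKM in WT at day 0, and 331 ± 46.7 FPKM in KO and 379 ± 39.7 FPKM in WT at day 9 (SD, n = 3). Of 8 genes of procollagen processing and cross-linking, 5 were called higher and 1 lower in KO, and 5 and 2 in WT. Pcolce, the enhancer of procollagen cleavage and the most abundant by its mean over all libraries, was 25.8 ± 4.96 FPKM in KO and 29.3 ± 11.5 FPKM in WT at day 9. At day 0 it was 39.7 ± 1.88 FPKM in KO and 46 ± 8.97 FPKM in WT. The difference was -0.62 (SE 0.26, adjusted p = 0.0587) in KO, and in WT, where it fell, -0.70 (SE 0.26, adjusted p = 0.0326). All 3 tested receptors were called higher in both, led by Itgb1, the shared subunit of the collagen-binding integrins, at 98.5 ± 16.1 FPKM in KO and 109.5 ± 34.5 FPKM in WT. Of 6 tested genes of collagen degradation, 5 were called higher in both. Timp1, the most abundant of them, was not (-0.38 in KO and -0.43 in WT). Of 8 tested proteoglycans and fibril partners, 6 were called higher in KO and 7 in WT, and Fn1, the fibronectin gene and the most abundant, was not called in KO (0.49) or in WT (-0.01).

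Bgn, which encodes the fibril-binding proteoglycan biglycan, was the 1 gene of these lists called in a comparison of changes. It read 1.53, 1.36 and 2.14 FPKM in KO and 3.03, 3.97 and 1.62 FPKM in WT at day 6, and 7.53, 2.14 and 3.69 FPKM in KO and 1.36, 1.46 and 1.58 FPKM in WT at day 9. The groups overlapped at day 6, and all KO libraries were higher at day 9. The change between these days differed by 1.52 (limma, SE 0.36, adjusted p = 0.0432), KO minus WT, with the same sign as for Col2a1 and Col11a2. The highest Bgn of day 9 was in KO replicate 1, the library that was also highest for Col2a1 and Col11a2. Alternatives were counted for collagen genes only, so how this call holds under them is not given.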

How the data were processed

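Poly(A) RNA of 24 libraries was sequenced on an Illumina sequencer, per the labels' protocols. The submitters' processing notes name the aligner HISAT2 2.2.1 and the counter featureCounts 2.0.1 with mm10, read trimming in Trimmomatic 0.39 after FastQC 0.11.9, and R 4.1.0 running DESeq2 1.30.1. The deposited values are FPKM per gene, computed by the authors. A KO library of day 0 carries a column name that fits its group and no single sample, so it was kept unnumbered.

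From these values, limma 3.58.1 (R 4.3.3) was fitted to log2(FPKM + 1) of 15159 genes with at least 1 FPKM in at least 3 libraries, with 8 groups, a trended prior, two-sided tests and Benjamini-Hochberg adjustment over all genes tested at 0.05. The script was tested on simulated data. FPKM times exon length gave whole reads (within 0.05) for 95.5% to 96.9% of values up to 50 reads, and voom on those reads was an alternative. A low FPKM rests on few reads, and log2(FPKM + 1) understates changes of low genes. Tables and figures used Python 3.11.15, pandas 2.3.3 and matplotlib 3.10.9.

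The collagen genes, other lists and tests were chosen with earlier results of these data known. Values in every library were given for genes called between genotypes or with a group mean of at least 20 FPKM. Other genes were given by range, with examples of the highest mean, and Col9a3, Col15a1, Col13a1 and others singled out for their course were chosen after their values were seen. Same-numbered KO and WT libraries deviated together at day 3 (r = 0.655, 0.614 and 0.599 across genes) and not at the other days, so the pairing was used only as an alternative.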

Additional observations from a re-analysis of the deposited data

Results flagged for a closer look

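The change between days 6 and 9 differed between the genotypes for Col2a1, by 3.47 on the log2(FPKM + 1) scale, KO minus WT (limma, SE 0.51, adjusted p = 0.00111). Its mean was 1.19 FPKM in KO and 9.58 FPKM in WT at day 6, and 21 FPKM in KO and 6.83 FPKM in WT at day 9. The same test of the difference between genotypes picked out Col11a2, by 1.01 (SE 0.23, adjusted p = 0.0384), with means of 0.533 FPKM in KO and 1.64 FPKM in WT at day 6, and 0.729 FPKM in KO and 0.443 FPKM in WT at day 9. The Col11a2 call was kept under 5 of 21 alternatives and lost with either replicate block, voom, TPM, equal sums and a pseudocount of 0.1. The KO mean of Col2a1 at day 9 rests in part on replicate 1, at 42.8 FPKM, and without it the difference in change was 2.80 (adjusted p = 9.13e-05).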

How the results depend on the processing

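No called value of a single gene reversed under an alternative, while uncalled KO against WT differences did change sign, 8 of 29 at day 6 under TPM. Among called values of single genes between the genotypes, 46 of 89 kept their call and 43 lost it, and between days 1298 of 1402 kept it and 104 lost it. Collagen genes called between KO and WT at day 6 were 3 as reported. They numbered 1 with a pseudocount of 0.1, the stricter filter (5 FPKM), either replicate block, voom, or without replicate 3 of both genotypes. After rescaling to TPM or with only the groups compared they numbered 0. Over all genes 110 were called as reported, 77 with the pseudocount, 28 with the stricter filter, 61 and 49 with the replicate blocks and 55 with voom. Without replicate 3 of both genotypes 108 were called, with TPM 46, and with only the groups compared 0. At day 9, 0 collagen genes as reported, there was 1 with no filter (263 of all 34699 genes) and 1 with equal sums (172 of 15326). For the change from day 6 to day 9, 2 collagen genes were called as reported. There was 1 under a pseudocount of 0.1, the stricter filter, TPM, equal sums, either replicate block, voom and without replicate 3 of both genotypes. The 1 was Col2a1 each time, and with only the groups compared there were 0. Over all genes 146 were called as reported, and 15 to 196 under these alternatives. Against day 0, the collagen count in KO at day 3 (5) was 10 with a pseudocount of 0.1, 1 with the stricter filter and 2 with TPM. It was 14 with only the groups compared, 3 with the replicate block and 10 with voom. Over all genes the calls were 4266 as reported, 4554 with the pseudocount and 6691 with only the groups compared, of 15159 each. They were 2667 of 8891 with the stricter filter, 1784 of 17020 with TPM, 3045 with the replicate block and 4449 with voom. The collagen count in WT at day 3 (6) was 10 with a pseudocount of 0.1, 10 with no filter, 2 with the stricter filter and 1 with TPM. Here 3933 of all genes were called as reported, 4155 with the pseudocount and 4982 of 34699 with no filter. The stricter filter called 2389 of 8891 and TPM 1552 of 17020. With the stricter filter, which tests fewer genes, the collagen counts in KO were 10 at day 6 and 13 at day 9. In WT they were 12 at both days. Of the 8891 genes then tested, 4220 and 4258 were called in KO and 4701 and 4366 in WT. TPM gave 14 collagen genes in WT at day 6, beside 3629 of 17020 genes. Apart from the stricter filter, the cause was not tested.

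Leaving out 1 library at a time, the KO against WT counts of collagen genes ranged over 0 to 0 at days 0 and 3. They were 1 to 5 at day 6 and 0 to 2 at day 9. Over all 15159 genes the calls in these fits were 2 to 7 at day 0, 0 to 2 at day 3, 34 to 373 at day 6 and 96 to 166 at day 9. For collagen genes the change from day 6 to day 9 gave 1 to 5 (74 to 306 over all genes), and that from day 0 gave 0 to 1 (20 to 61). Against day 0, KO gave 2 to 4, 16 to 19 and 26 to 27 collagen genes at days 3, 6 and 9, and WT gave 4 to 5, 16 to 20 and 24 to 25. In the same order, the calls over all genes were 3101 to 3927, 5565 to 7321 and 5889 to 6327 in KO. In WT they were 2871 to 3932, 6110 to 7358 and 6083 to 6627. At day 6 the KO against WT count of collagen genes was 5 without KO replicate 1 (142 over all genes) and 4 without WT replicate 2 (373). It was 1 without any of the other libraries, Col2a1 each time. In the change from day 6 to day 9 it was 5 without WT replicate 2 of day 6 or KO replicate 3 of day 9. Same-numbered libraries correlated at 0.12 and -0.106 at day 0, 0.265, -0.259 and -0.467 at day 6, and 0.196, 0.179 and -0.459 at day 9. At day 0 these numbers came from the sample titles. Matched by the numbers in the column names, the day 0 libraries correlated at 0.12, 0.262 and 0.046. The values show no pairing at days 6 and 9 and leave it unsettled at day 0. With 3 libraries per group they cannot exclude one. In limma with the replicate block, Col2a1 at day 6 had an adjusted p of 0.00434. Rescaling to TPM put the median KO against WT difference of all genes at 0.51 at day 6. Genes under 1 FPKM rest on few reads, which limits the precision of their differences.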
